A study of Mus musculus with 6 samples.

Results

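The latent TGF-β binding proteins and the structural genes of the elastic fiber were followed through RNA sequencing of MLE-12 cells, a transformed mouse line of distal lung epithelium. The 10 genes were Ltbp1, Ltbp2, Ltbp3, Ltbp4, Fbn1, Fbn2, Eln, Fbln1, Fbln5 and Lox, out of 34745 genes in the table, and they were taken by their gene symbol. All 10 were found, in 11 rows, because Ltbp4 has a second identifier. The members were selected on their values in the comparison of NR4A1 overexpression with vector control and on how far the second NR4A1 overexpression library lay from the other libraries. Their values in that comparison are therefore a description and carry no test.

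The study asked which genes respond in lung epithelial cells to NR4A1, a nuclear receptor of the NR4A family. In the 3 libraries labelled N1, N2 and N3 the cells had received an NR4A1 overexpression plasmid, built by placing the open reading frame in pCMV-SPORT6, in which a CMV promoter drives expression. In the 3 libraries labelled S1, S2 and S3 they had received the pCMV-SPORT6 vector. All 6 were MLE-12 cells transfected with Lipofectamine, and the labels do not say whether the replicates were separate cultures, so that the spread between them may be technical.

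Latent TGF-β binding proteins hold TGF-β in an inactive complex and fasten it to the extracellular matrix, from which integrins and proteases release it. They attach to microfibrils, cables built of fibrillin, which are also the scaffold on which elastin is laid down. Fibulins join elastin to that scaffold, and lysyl oxidase crosslinks it into a fiber. In the lung these fibers give the alveolar wall its recoil, and in the developing lung they are laid down chiefly by mesenchymal cells, above all myofibroblasts.

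The total count per library ranged from 15019038 to 17574340, and 3 counts, the smallest amount taken as detectable, correspond to 0.171 to 0.200 CPM, the count scaled to library size. Levels are given as counts or as CPM with TMM factors, and levels of different genes are compared only in FPKM, which divides by length. Differences between groups are given as the log2 fold change, NR4A1 over vector (log2FC), with a standard error (SE). The SE was derived from edgeR's quasi-likelihood test, as the size of the log2FC divided by the square root of the F statistic. Nr4a1 was counted 50660, 60093 and 68555 times in N1, N2 and N3 and between 428 and 510 times in the vector controls, and reads from the plasmid and from the cells' own gene are not told apart. Of the 10 lung epithelial markers, Krt8, Cdh1, Nkx2-1, Sftpc and Foxa2 had at least 439 counts in every library, while Epcam had 2 to 22 and Cldn4 had 0 or 1. Krt18 had 164 counts in N2 and 2 to 21 in the other libraries. In N2, 790 of the 13375 genes that reached 1 CPM in any library exceeded every other library 2-fold or more, and in each of the other 5 libraries 4 to 25 genes did so. Markers of other cell types were also high in N2. The summed level of 8 smooth muscle markers was 354 CPM in N2 and 20.3 to 29.1 CPM elsewhere, and that of 10 endothelial markers was 132 CPM against 14.1 to 16.6 CPM. The endothelial genes Cdh5, Kdr, Tie1 and Erg, at 419, 38, 192 and 85 counts in N2, had 0 counts in each of the other 5 libraries. Pecam1, Vwf and Egfl7 were counted in every library and were highest in N2. Tek went the other way, with 5.30 CPM in N2 and 6.09 to 7.35 CPM elsewhere. Of 12 fibroblast markers, 10 were highest in N2. Dcn dominated their sum with 14138 to 17269 counts in every library, and without it the sum was 769.5 CPM in N2, 68.4 CPM in S1 and 10.9 to 21.4 CPM in the other 4. The immune markers summed to 5.42 CPM in N2 and 2.14 to 3.40 CPM elsewhere. The part of such cells in the values below was not tested, and in bulk RNA a change in the number of cells of a type and a change in RNA per cell cannot be told apart.

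The members fell into 2 sets. Ltbp3, Ltbp4, Fbln1 and Fbln5 were expressed in every library at similar levels, and Fbn2 and Eln were lower, with Fbn2 between 4.71 CPM in N2 and 10.5 CPM in N3. Ltbp1, Ltbp2, Fbn1 and Lox were high in N2 and at most 10.5 CPM in every other library, and 3 of them, all but Ltbp2, were also 2-fold or more above N1, N3, S2 and S3 in S1.

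**Figure D1:**
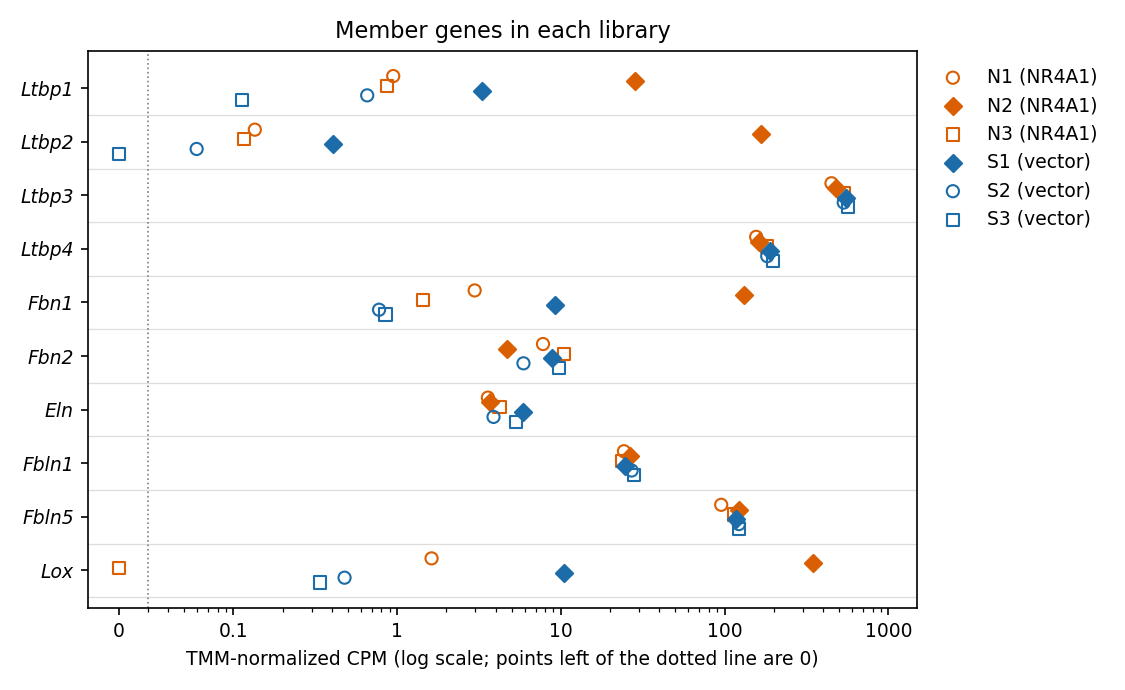
TMM-normalized CPM (log axis) of the 10 member genes in each of the 6 libraries. Each point is 1 library, with NR4A1 overexpression in orange, vector control in blue, and N2 and S1 as filled diamonds. Lox reached 345 CPM in N2, 10.5 CPM in S1 and at most 1.62 CPM in the other 4 libraries, while the 6 libraries lay close together for Ltbp3, Ltbp4, Fbln1 and Fbln5.

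In the vector controls Ltbp3 had the highest level per length of the members, with 106.2, 103.9 and 109.8 FPKM in S1, S2 and S3 (mean 106.7 ± 2.96, SD, n = 3). Fbln5 followed with 20.8 ± 0.538 FPKM, and Ltbp4 with 19.5 ± 0.715 FPKM. Fbln5 was above Ltbp4 in each of the 3 libraries, but Ltbp4 in S3, at 20.3 FPKM, lay above Fbln5 in S1, at 20.2 FPKM, so that the ranges of this pair of neighbors overlapped. Fbln1 came next with 5.68 ± 0.357 FPKM.

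The remaining 6 members were below 1 FPKM on average. Fbn2 had 0.782 ± 0.188 FPKM and Eln 0.523 ± 0.107 FPKM, and their replicates overlapped. Lox (0.507 ± 0.782 FPKM), Fbn1 (0.248 ± 0.333), Ltbp1 (0.0915 ± 0.115) and Ltbp2 (0.0114 ± 0.0161) each had an SD above the mean. In all 4 the highest replicate was S1, and the ranges of neighbors in this order overlapped. In S2 these 4 stood in the same order, and in S3 Fbn1 was above Lox.

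**Figure D2:**
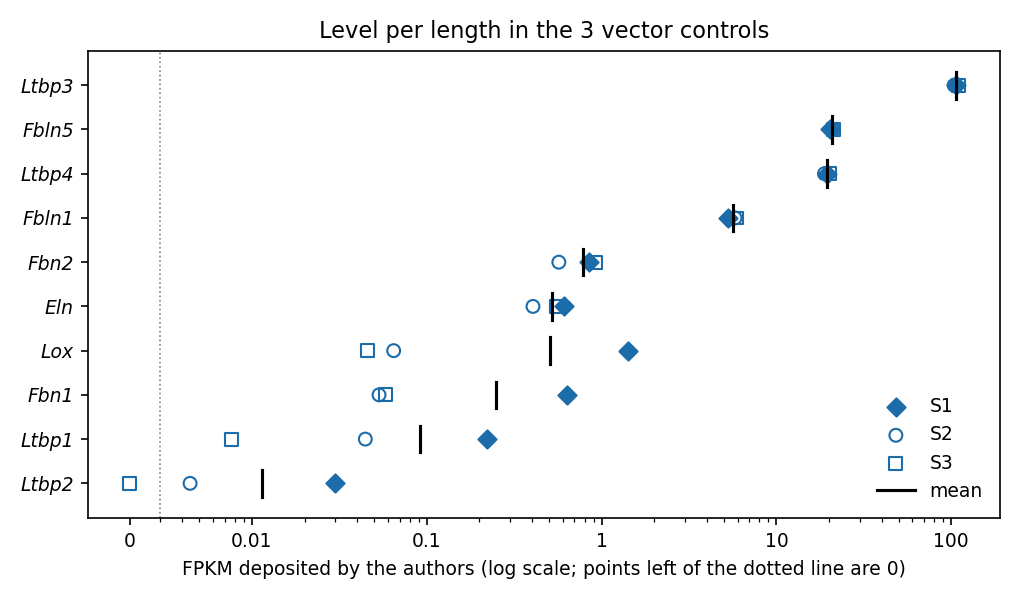
FPKM as deposited by the authors (log axis) for the 10 members in the 3 vector controls, with 1 point per replicate and the mean as a vertical line. The 4 highest genes have tight replicates, and for Lox, Fbn1, Ltbp1 and Ltbp2 the replicate S1 lies above S2 and S3.

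Ltbp2, on chromosome 12 from 84783212 to 84876532 on the minus strand (GRCm38), encodes a microfibril protein which, unlike the other members of its family, does not bind latent TGF-β. It was counted 2, 2815 and 2 times in N1, N2 and N3, and 7, 1 and 0 times in S1, S2 and S3. The libraries N1 and N3 were thus at the same few counts as the vector controls, and N2 held 99.6% of all counts of the gene.

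In TMM-normalized CPM, Ltbp2 had 167.7 in N2 and 0.405 in S1, the highest of the other libraries, a ratio of 414 with an exact 95% interval of 201 to 1031. Such intervals cover counting error only, since reads without molecular identifiers are not independent molecules. The mean was 56.0 ± 96.8 CPM with NR4A1 and 0.155 ± 0.219 CPM in the vector controls (SD, n = 3). Over all 6 libraries the log2FC was 8.43. The default filter on low counts, which asks for enough counts in at least 3 libraries, removed the gene, so that it had no standard error. With N2 left out, 1 library is above 3 counts, S1 with 7, and no fold is given. On its opposite strand an annotated antisense gene, D030025P21Rik, had 14 counts in N2 and 0 in every other library. Whether the counting used the strand of the reads is not given in the sources used here, so that reads of Ltbp2 and its antisense gene may not be told apart.

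Ltbp1, on chromosome 17 from 75005568 to 75392512 on the plus strand, encodes the founding member of the family, which carries latent TGF-β to the matrix. It was counted 14, 474 and 15 times in N1, N2 and N3, and 57, 11 and 2 times in S1, S2 and S3. The groups overlapped, with S1 above N1 and N3. The log2FC was 2.88 (SE 1.54) over all libraries and -0.58 (SE 1.04) without N2. N2 lay 8.56-fold above S1 (95% counting interval 6.49 to 11.5), and S1 lay 3.49-fold above the highest of N1, N3, S2 and S3.

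The sequence before the start sites of Ltbp2 and Ltbp1 is shown in part because both were high in the same library. RefSeq promoter windows of GRCm38.p6, 250 bases before the start, were found for 7 of the 10 members, with 12 windows in all. The names without a window were Eln, Fbn2 and Lox. Each window was searched on both strands for the NR4A monomer site AAAGGTCA, the Smad-type motif CAGACA, the AP-1 motif TGANTCA, the TEAD motif GGAATG, the TATA motif TATAAA and the GC box GGGCGG. The NR4A monomer site was in none of the 12 windows and is in 1.34% of the 32851 windows of the table, and the AP-1, TEAD and TATA motifs, found in 6.75%, 12.6% and 12.4% of all windows, were also in none. The Smad-type motif, in 17.1% of all windows, was in a window of Ltbp1, Fbln1 and Fbln5. The GC box, in 32.7% of all windows, was in a window of Ltbp2, Ltbp4, Fbn1, Fbln1 and Fbln5, and the window of Ltbp3 held none of the 6 motifs. Overlapping matches count separately, and the Fbn1 window lay wholly inside exons annotated in GENCODE M21. Such matches are of letters, and neither a match nor its absence says whether a factor binds. Short stretches with matches of Ltbp2 and Ltbp1 that lie outside annotated UTRs in GENCODE M21 follow. They are read on the strand of the gene, with the match in capitals. That of Ltbp2 lies inside an exon of its antisense gene D030025P21Rik on the other strand. Those of Ltbp1 lie inside the Ltbp1 gene, within annotated transcripts but in no annotated exon. In all 3 the motif reads on the opposite strand.
Ltbp2, GC box, chr12:84876607-84876636, minus strand: ttaatcccctcgCCGCCCgctcgcttctcg
Ltbp1, second start site, Smad-type motif, chr17:75178620-75178649, plus strand: attacatctgccTGTCTGtcgggggttggc
Ltbp1, second start site, Smad-type motif, chr17:75178671-75178700, plus strand: gatgttgctcttTGTCTGcccgtgaataaa

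Ltbp3 and Ltbp4, the other carriers of latent TGF-β, differed little between libraries. Ltbp3, on chromosome 19 from 5740904 to 5758532 on the plus strand, had 6642, 8033 and 9251 counts in N1, N2 and N3 and 9495, 8944 and 10017 in S1, S2 and S3. Scaled by TMM, this was 449, 479 and 534.5 CPM against 549.5, 533.7 and 567 CPM. N3 lay just above S2, so the groups overlapped by this margin. The log2FC was -0.18 (SE 0.0850), and it was -0.16 without N2.

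Ltbp4, on chromosome 7 from 27305136 to 27337692 on the minus strand, is a carrier that also takes part in the assembly of elastic fibers. It had 2304, 2737 and 3155 counts in N1, N2 and N3 and 3276, 3050 and 3478 in S1, S2 and S3, a log2FC of -0.18 (SE 0.0821). A second row under the same symbol lies inside the gene on the same strand and had 79 counts in N1, 72 in S2 and 0 in the other libraries. With both rows summed, the level was 161, 163 and 182 CPM in N1, N2 and N3 and 190, 186 and 197 CPM in S1, S2 and S3. In the sum every NR4A1 library lay below every vector control, whereas in the main row N3 and S2 overlapped at 182.3 and 182.0 CPM. Scaled by library totals without TMM factors, the main row of Ltbp4 and the row of Ltbp3 also had every NR4A1 library below every vector control. Under TMM and under median-ratio factors the groups overlapped for all 10 members. Over all 12941 tested genes, scaled by TMM, 6.69% had every NR4A1 library above every vector control and 6.22% had every NR4A1 library below. These shares were not computed under library totals.

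Among the fibrillins, Fbn1 and Fbn2 had different patterns. Fbn1, on chromosome 2 from 125300594 to 125507993 on the minus strand, encodes the main fibrillin of adult microfibrils. It was counted 44, 2190 and 25 times in N1, N2 and N3, and 160, 13 and 15 times in S1, S2 and S3. N2 lay 14.1-fold above S1 (95% counting interval 12.0 to 16.6), and S1 lay 3.11-fold above N1. Over all libraries the log2FC was 3.63 (SE 1.75), and it turned to -0.73 (SE 1.06) without N2.

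Fbn2, on chromosome 18 and known as a fibrillin of developing tissues, had 115, 79 and 181 counts in N1, N2 and N3 and 153, 99 and 171 in S1, S2 and S3. N2 was the lowest of the 6 libraries, and the range of the vector controls lay within that of the NR4A1 libraries. The log2FC was -0.09 (SE 0.319) over all libraries and 0.16 (SE 0.242) without N2.

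Eln, on chromosome 5 from 134702593 to 134747323 on the minus strand, encodes tropoelastin, the monomer of elastin. It had 53, 62 and 73 counts with NR4A1 and 102, 65 and 94 in the vector controls, or 3.83 ± 0.339 CPM against 5.04 ± 1.04 CPM (SD, n = 3). S2 lay among the NR4A1 libraries. The log2FC was -0.39 (SE 0.216). Unlike Ltbp2, Fbn1 and Lox, Eln was not high in N2, whose level was 0.626 times that of S1.

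The fibulins varied little between libraries. Fbln5, on chromosome 12 from 101746565 to 101819055 on the minus strand, tethers elastin to microfibrils and to cells. It had 111 ± 13.9 CPM with NR4A1 and 121 ± 2.80 CPM in the vector controls (SD, n = 3). N1, at 95.3 CPM, was the lowest library, and N2, at 122.2 CPM, lay within the range of the vector controls. Its log2FC was -0.13 (SE 0.102).

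Fbln1, on chromosome 15 from 85205949 to 85286535 on the plus strand, encodes a fibulin of basement membranes and elastic fibers. It had 359, 443 and 411 counts with NR4A1 and 428, 453 and 493 in the vector controls. The CPM values ranged from 23.7 to 27.9 over the 6 libraries, with a log2FC of -0.10 (SE 0.0879).

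Lox, on chromosome 18, encodes the enzyme that crosslinks elastin and collagen. It was counted 24, 5790 and 0 times in N1, N2 and N3, and 181, 8 and 6 times in S1, S2 and S3. N2 held 96.4% of its counts and lay 32.9-fold above S1 (95% counting interval 28.4 to 38.4), and S1 in turn lay 6.46-fold above N1. In N2 its level per length, 45.9 FPKM, was above that of Fbln5 in the same library, 20.8 FPKM, whereas N3 had no count of it. The log2FC was 4.94 (SE 2.38) over all 6 libraries, -2.27 (SE 1.68) without N2 and 8.12 (SE 3.53) without S1.

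The order of the members by level per length was thus different in N2. There Ltbp3, at 91.4 FPKM, was again first, but Lox, at 45.9 FPKM, came second. Ltbp2, at 12.2 FPKM, and Fbn1, at 8.80 FPKM, stood above Fbln1, at 5.56 FPKM, and Ltbp1 had 1.88 FPKM. Fbn2 and Eln were last in this library, at 0.445 and 0.378 FPKM, so that the gene for the fiber's monomer was the lowest while its crosslinking enzyme was the second highest. In N1, with 85.2 FPKM of Ltbp3 and 16.1 FPKM of Fbln5, the 4 genes Lox, Fbn1, Ltbp1 and Ltbp2 were again at the bottom, at 0.214, 0.199, 0.0626 and 0.00978 FPKM. These are single libraries and have no error.

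In the fit over all 6 libraries 9 of the 10 members passed the count filter. Their median log2FC was -0.10, beside 0.01 over all tested genes. Of the members 3 lay above 0 and 6 below, and of all tested genes 6713 and 6228. Ltbp2, with a log2FC of 8.43, was not among the 9. Without N2 the median was -0.20, with 1 above 0 and 8 below. Over all tested genes it was then -0.002, with 6495 above and 6589 below. Of all tested genes 22 (0.17%) were higher and 0 (0%) lower with NR4A1 in edgeR's quasi-likelihood test with an adjusted p under 0.05 and a change of 2-fold or more, while 144 were higher and 17 lower on an unadjusted p under 0.05 with the same fold, and DESeq2 called 71 higher and 2 lower. No member was among these calls in any of the 3. For the members this is a description, since they were chosen on this comparison, and nothing is read from it. DESeq2 gave no p for Fbn1, Lox and Ltbp1, and Ltbp2, removed by the filter, was not tested in any of the 3.

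Without both N2 and S1, the log2FC of Ltbp1 was 1.24 (SE 0.699), that of Fbn1 was 1.42 (SE 0.464), and that of Lox, then removed by the filter, was 0.93. With Ltbp1 at 14 and 15 counts against 11 and 2, and Fbn1 at 44 and 25 against 13 and 15, these rest on few counts. The 3 fits thus gave a high, a negative and a moderately positive value for these 3 genes. For Ltbp3, Ltbp4, Eln, Fbln1 and Fbln5 the value was below 0 in all 3 fits, and no tested member was past the threshold in any.

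**Figure D3:**
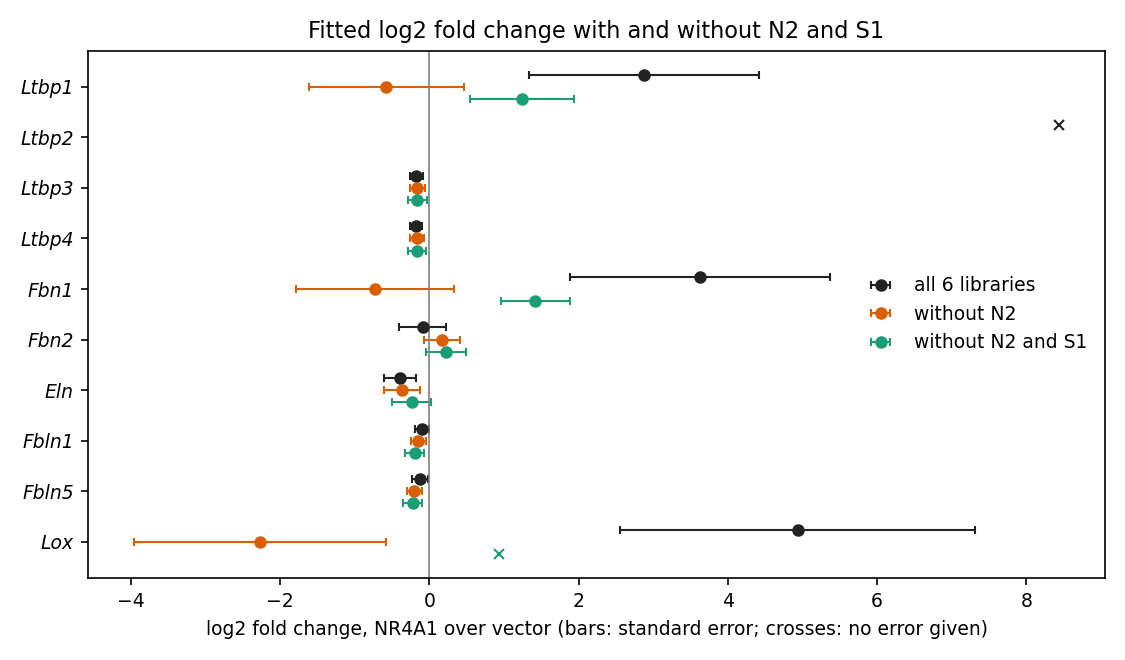
Log2FC of each member, NR4A1 overexpression over vector control, in edgeR fits with all 6 libraries (black), without N2 (orange) and without N2 and S1 (green), with bars of 1 standard error and crosses where the filter removed the gene. Lox moves from 4.94 to -2.27 when N2 is left out, Ltbp3 stays near -0.18, and for Ltbp2 only the fit with all libraries is drawn.

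N2 was at least 2-fold above every other library for 4 of the 10 members, Fbn1, Lox, Ltbp1 and Ltbp2, beside 5.91% of the 13375 genes with 1 CPM in any library. At 10-fold or more the members were Fbn1, Lox and Ltbp2, and the share of all genes was 2.09%. Just inside the 2-fold limit among the members was Ltbp1, at 8.56-fold, and just outside was Fbln5, at 0.998. S1 was at least 2-fold above N1, N3, S2 and S3 for Fbn1, Lox and Ltbp1, beside 1.32% of all genes, and Ltbp2 lay at the limit with its low counts set to the 3-count floor. None of the other libraries had a member 2-fold above the rest. Because members were chosen with N2 in view, nothing is read from these shares.

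The 4 members high in N2 were set beside fibroblast and smooth muscle markers by their level in N2 over that in S1. These ratios compare single libraries, and their intervals hold counting error only, whereas the counts of replicates differed by 9.82 to 44.6 times the counting variance, so that the ratios are given as values with no test. The ratio was 8.56 for Ltbp1, 14.1 for Fbn1, 32.9 for Lox and 414 for Ltbp2, which rests on the 7 counts of Ltbp2 in S1. The fibroblast collagens Col1a1 and Col1a2, which form the main fibers of connective tissue, had ratios of 14.2 and 16.3. Smooth muscle actin Acta2, with 3841 counts in N2 and 15 in S1, had a ratio of 264, and Tagln, another smooth muscle gene, one of 61.5. Thy1, Lmod1, Des and Myh11, at 21.6, 23.2, 31.9 and 55.6, lay between Col1a2 and Tagln, with Des and Myh11 resting on 1 count each in S1. Below Col1a1 were Postn at 12.3, Fap at 11.8, Pdgfrb at 8.50, Col3a1 at 8.16, Pdgfra at 6.84, Cnn1 at 5.88 and Col6a3 at 5.56. Smtn, Dcn and Lum, at 1.09, 0.915 and 0.721, were not 2-fold higher in N2.

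**Figure D4:**
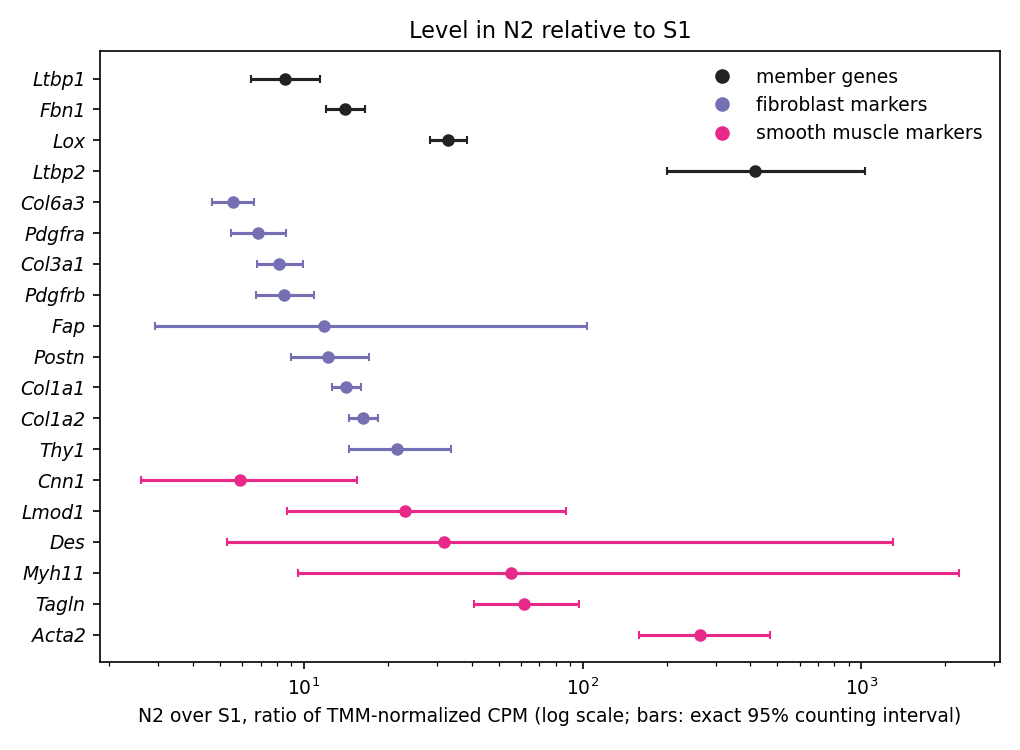
Ratio of the TMM-normalized CPM in N2 to that in S1 (log axis) for the 4 members high in N2 and for the fibroblast and smooth muscle markers at least 2-fold higher in N2, with exact 95% counting intervals. The points run from 5.56 for Col6a3 to 414 for Ltbp2, and the intervals leave out the spread between replicates. The ratios use no floor, and in S1 Myh11 and Des had 1 count each and Fap had 2. The smooth muscle gene Actg2 is not drawn because it had no count in S1.

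Genes whose pattern over the 6 libraries was most like that of Ltbp2 were sought by Pearson's r of log2(CPM + 1) among 12457 genes with a mean of at least 1 CPM. The first were Pde3a, with 243 counts in N2 and 0 to 3 elsewhere, Jph2, BC034090, Ggta1 and Gpr176. The r of Pde3a was 0.9997, and 107 genes reached 0.99 or more, with 1 of the 6 points far above the rest. For Ltbp3, the most abundant member, the first were Slc38a10 (r = 0.993), Lonrf1, Fads2, Hspa2 and Il17ra. Slc38a10 had 3179, 3736 and 4188 counts in N1, N2 and N3 and 4338, 4032 and 4481 in the vector controls. These correlations are descriptions over 6 libraries that share their depth scaling.

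Among 21 other genes of microfibrils and elastic fibers, 12 were tested and 0 passed the threshold in edgeR, with 0 at an unadjusted p under 0.05 and 0 in DESeq2. The median log2FC was 0.20, with 10 above 0 and 2 below, and without N2 it was -0.16, with 4 above and 8 below. Of all tested genes 6713 lay above 0 and 6228 below, and without N2 6495 and 6589. The 3 with the smallest p were Vcan, Fbln2 and Hmcn1. Vcan, a proteoglycan that binds microfibrils, had 56, 1124 and 48 counts in N1, N2 and N3 and 177, 18 and 33 in S1, S2 and S3 (log2FC 2.48, SE 1.36, adjusted p = 0.834 in edgeR). Fbln2, a fibulin of vessel walls and basement membranes, had 39, 5828 and 3 counts with NR4A1 and 335, 6 and 12 in the vector controls (log2FC 4.10, SE 2.27, adjusted p = 0.834 in edgeR). Hmcn1, which encodes a large basement membrane protein, had 305, 231 and 286 counts with NR4A1 and 256, 127 and 254 in the vector controls, with N2 the lowest NR4A1 library, and a log2FC of 0.47 (SE 0.273, adjusted p = 0.840 in edgeR).

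N2 and S1 also lay apart for genes of this list. Of the 15 with at least 1 CPM in any library, 7 were 2-fold above every other library in N2, beside 5.91% of all genes with 1 CPM, and they were Efemp1, Emilin2, Fbln2, Loxl1, Loxl3, Mfap5 and Vcan. In S1, 6 of the 15, which were all of these but Loxl3, were 2-fold higher than in the remaining 4 libraries, beside 1.32% of all genes. The share among genes high in N2 was not computed. The gene lists were also chosen with earlier results of these data known. Nothing is therefore read from these shares or from those of the lists below. Mfap5, a microfibril-associated glycoprotein, had 225 counts in N2, 16 in S1 and 0 in the other 4 libraries. Loxl3, a relative of Lox, had 1606 counts in N2 but 354 in S1, within the 334 to 460 of the other libraries. Loxl2, another relative, had 2563 to 3551 counts and was not apart in either.

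**Figure D5:**
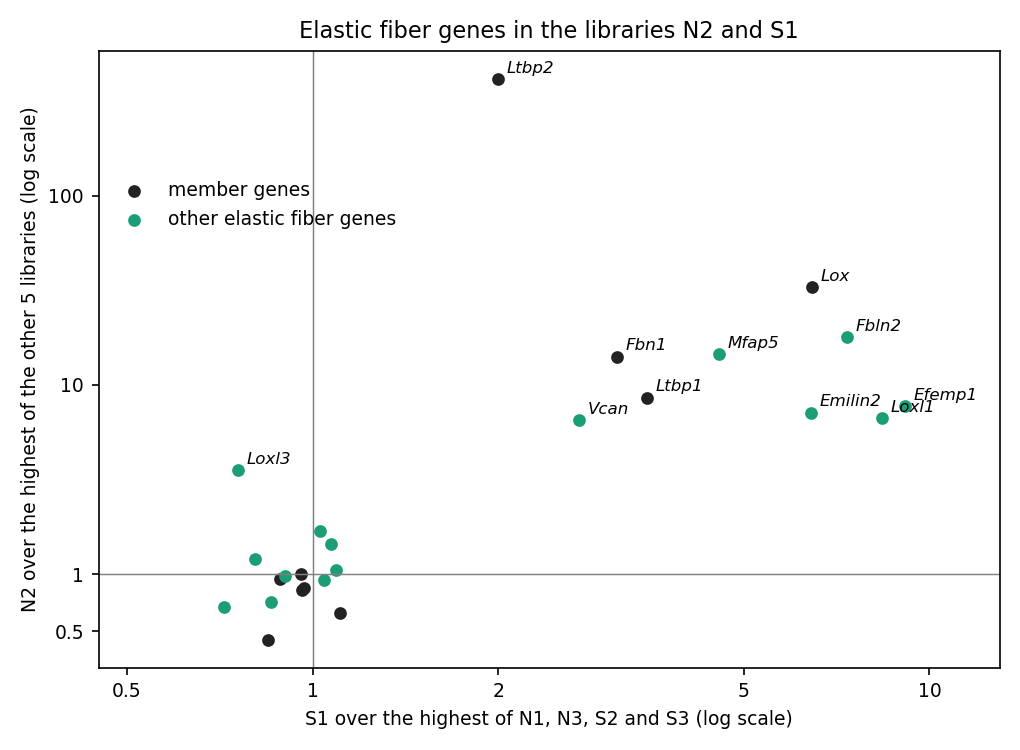
Members (black) and other elastic fiber genes with at least 1 CPM in any library (green), by the ratio of S1 to the highest of N1, N3, S2 and S3 (horizontal) and of N2 to the highest of the other 5 libraries (vertical), both on log axes with a floor of 3 counts. Lox, Fbln2 and Mfap5 lie high on both axes, Loxl3 on the vertical axis, and Ltbp2 is far above the others at 414.

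Among 17 genes of latent TGF-β storage and release, 12 were tested and 0 passed the threshold, with 0 in DESeq2 and 1, Thbs1, at an unadjusted p under 0.05, beside 6.46% of all tested genes. Their median log2FC was 0.03. The ligands differed little between groups, and Tgfb1, Tgfb2 and Tgfb3 had log2FC values of 0.03, 0.03 and 0.02. Thbs1, thrombospondin, which can free TGF-β from its latent complex, had 605, 5713 and 716 counts with NR4A1 and 711, 533 and 622 in the vector controls (log2FC 1.97, SE 0.822, adjusted p = 0.761 in edgeR). Itgb8, an integrin chain that activates TGF-β, had 418, 284 and 396 counts against 294, 199 and 324, a log2FC of 0.52 (SE 0.227, adjusted p = 0.781 in edgeR). Bmp1, a protease that cuts latent TGF-β binding proteins and activates Lox, had a log2FC of -0.17 (SE 0.0754, adjusted p = 0.784 in edgeR).

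The gene Lrrc32 encodes a cell-surface anchor of latent TGF-β. It had 885 counts in N2, 16 in S1 and 0 to 5 in the other libraries, and the filter removed it. Tll1, a relative of Bmp1, had 489 counts in N2 and 0 to 7 elsewhere and was also removed. Along with Thbs1, these were the 3 genes, of 14 with at least 1 CPM, whose level in N2 was 2-fold or more above every other library, beside 5.91% of all genes.

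Of 15 genes widely used as targets of TGF-β, 14 were tested and 0 passed the threshold in edgeR or DESeq2, with 1, Smad7, at an unadjusted p under 0.05, again beside 6.46% of all tested genes. The median log2FC was 0.10, with 11 above 0 and 3 below, and without N2 it was -0.09, with 5 above and 9 below. Over all tested genes the splits were 6713 above and 6228 below, and without N2 6495 and 6589. Smad7, the inhibitory Smad, had 231, 312 and 304 counts with NR4A1 and 266, 203 and 211 in the vector controls (log2FC 0.39, SE 0.139, adjusted p = 0.673 in edgeR). Scaled by TMM, this was 15.6, 18.6 and 17.6 CPM against 15.4, 12.1 and 12.0 CPM. Every NR4A1 library thus lay above every vector control, as for 6.69% of all tested genes. Ctgf, the connective tissue growth factor, had 853, 4376 and 1063 counts with NR4A1 and 947, 851 and 914 in S1, S2 and S3 (log2FC 1.27, SE 0.568, adjusted p = 0.784 in edgeR). In N2 the levels of Ctgf, Fn1 and Itga5 exceeded every other library 2-fold or more, as did 5.91% of all genes. S1 was not high for Ctgf, at 54.8 CPM, within the 50.8 to 61.4 CPM of N1, N3, S2 and S3.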

How the data were processed

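RNA of MLE-12 cells was sequenced in 6 libraries, grouped by the treatment in the labels into 3 with NR4A1 overexpression and 3 vector controls. The authors deposited 1 table with read counts and FPKM values for each gene in each library. Its libraries were strand-specific and run on a NovaSeq instrument, and the submitters' processing notes list HISAT2 2.0.4 and GRCm38.p4. The counting program is not given in the sources used here. The deposited FPKM values equal the counts divided by library total and 1 length per gene, to within 0.000447% over the 8854 genes with at least 200 counts in every library.

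The members and gene lists were chosen with earlier results of these data known. Genes named besides the members were every list gene past the threshold, the 3 with the smallest p, any gene at least 10-fold higher in N2 than in every other library, and the 5 most like Ltbp2 or Ltbp3. Some genes that this rule names are not reported here. Loxl3, Loxl2, Fn1, Itga5, the ligands and the listed N2-high genes were named after their values were seen.

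TMM factors, the default count filter and the quasi-likelihood test were computed from the counts with edgeR 4.0.16 in R 4.3.3, and p-values were adjusted by Benjamini-Hochberg over 12941 genes. A gene passed with a change of 2-fold or more and an adjusted p under 0.05. The code was tested on simulated data. DESeq2 1.42.0, median-ratio factors, library totals, no filter, an unadjusted p, the replicate number as a block and each library left out were the alternatives. Leaving out N2 together with S1 was chosen after seeing the data. Folds of a library over the highest of several others used 3 counts for any of those under 3 counts. The ratios of N2 to S1 set beside the marker genes used no such floor. Of the identifiers shared with GENCODE M21, 80.8% have the same coordinates. The total counts, 15019038 to 17574340 per library, limit precision for low genes, and intervals and floors cover counting error only.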

Additional observations from a re-analysis of the deposited data

How the results depend on the processing

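No member, and no gene of the elastic fiber, latent TGF-β or TGF-β target lists, passed the threshold under any alternative fit, except that on an unadjusted p 1 latent TGF-β gene, Thbs1, did. Ltbp2 was tested only in the fit with no filter, and DESeq2 gave no p for Fbn1, Lox and Ltbp1. For the members these outcomes are a description, because they were chosen on this comparison. Over all genes 22 were higher and 0 lower in the reported fit. DESeq2 called 71 higher and 2 lower, an unadjusted p 144 and 17, and the fit without both N2 and S1, added after seeing the data, 43 and 4. Leaving out 1 library in turn gave 3 to 25 higher and 0 to 3 lower genes, with 25 and 3 without N2 and 3 and 0 without N3. The cause of these differences was not tested.

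In the fit with a replicate block, 5 genes were higher and 0 lower. Deviations from the group mean correlated at -0.006, 0.008 and 0.204 between libraries of the same number and at -0.031 on average between others. Whether libraries of the same number were paired cannot be told from so few values.

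Leaving out 1 library moved the log2 fold change of Lox between -2.27 and 8.12, of Fbn1 between -0.73 and 5.78, of Ltbp1 between -0.58 and 4.69, and of Fbn2 between -0.39 and 0.16, and for the other tested members it stayed below 0. Genes at a few counts, such as Ltbp2 outside N2, lie at the detection limit of these depths.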
